A study of Mus musculus with 4 samples.

Results

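The skeletal myosin heavy chain cluster is a row of 6 genes on mouse chromosome 11, in the order Myh3, Myh2, Myh1, Myh4, Myh8 and Myh13, each of which encodes the motor protein of the thick filament of striated muscle. It was examined for histone H3 trimethylated at lysine 36 (H3K36me3) in cultured myocytes. The cluster was taken as the window chr11:66880000-67240000 of the mouse build mm9 (360 kb), and the 6 genes are called its members. Islands are enriched regions called by the authors, and the cluster islands are those that overlap this window. There were 10 of them among the 69798 islands of the enhancer-deletion library and 6 among the 58326 islands of the wild-type library. The rule that set the window uses gene position and no measured value. On chromosome 11 as a whole the lists held 3978 islands in the enhancer-deletion library and 3332 in the wild-type library.

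The enhancer-deletion myocytes lack a muscle-specific enhancer that serves H19/Igf2, an imprinted locus on another chromosome, and the wild-type myocytes keep it. Everything else the labels give is shared by the 2 genotypes: FVB strain, myoblasts taken from skeletal muscle on postnatal day 4, 5 to 10 passages in culture, differentiation for 24 hours by growth factor withdrawal, and 10 ng of DNA per library. Of its 4 samples, 2 are H3K36me3 libraries, 1 per genotype, and the 2 input DNA libraries were not analysed here. With 1 library per genotype there was no replicate spread, no test of genotype could be made, and every difference below is between these 2 libraries. The labels do not say how many animals or cultures a library came from, and other marker genes of myocytes or of the other cells of a muscle culture could not be placed on mm9 here.

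H3K36me3 is laid down over the bodies of genes while RNA polymerase II elongates through them, by an enzyme that travels with the polymerase, and so marks transcribed bodies rather than promoters. The members are used in different muscles and at different ages. Myh3 encodes the embryonic myosin heavy chain, which appears as myoblasts fuse and differentiate, and Myh8 the perinatal form. Myh2, Myh1 and Myh4 encode the fast forms of adult fibres, called IIa, IIx and IIb, and Myh13 encodes the form found in extraocular muscle.

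The DNA just upstream of 4 member genes is shown because islands lay over the body of Myh3 along nearly its whole length in both libraries, over parts of Myh1 in both, over part of Myh2 in the enhancer-deletion library alone and nowhere over Myh4. Each sequence is the 250 bases before a start annotated in RefSeq on GRCm38.p6, plus strand, 5′ to 3′. For Myh3 that start lies right of the gene edge used for cover, which is called the annotated start below. The first island over Myh3 began 199 bp right of the printed sequence and 226 bp right of that edge in both libraries. Capitals mark TATAAA on either strand (TTTATA is the same motif read on the other strand) and the run TTCTAATTATATCC. Myh3 lies at chr11:67078050-67078299, Myh2 at chr11:67170777-67171026, Myh1 at chr11:67199852-67200101 and Myh4 at chr11:67237562-67237811.
Myh3: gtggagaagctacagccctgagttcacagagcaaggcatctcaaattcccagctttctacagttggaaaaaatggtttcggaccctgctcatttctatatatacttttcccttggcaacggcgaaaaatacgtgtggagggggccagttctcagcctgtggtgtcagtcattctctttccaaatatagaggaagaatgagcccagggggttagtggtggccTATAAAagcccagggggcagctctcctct
Myh2: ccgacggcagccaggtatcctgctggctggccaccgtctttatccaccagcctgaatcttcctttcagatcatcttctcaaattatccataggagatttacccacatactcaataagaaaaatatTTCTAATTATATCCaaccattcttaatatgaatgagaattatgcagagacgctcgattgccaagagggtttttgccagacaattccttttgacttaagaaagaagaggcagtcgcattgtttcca
Myh1: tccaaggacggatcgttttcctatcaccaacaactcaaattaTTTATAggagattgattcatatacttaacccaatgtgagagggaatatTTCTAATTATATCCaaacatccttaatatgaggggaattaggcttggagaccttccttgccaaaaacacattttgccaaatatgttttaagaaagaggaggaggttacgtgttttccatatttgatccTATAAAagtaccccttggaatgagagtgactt
Myh4: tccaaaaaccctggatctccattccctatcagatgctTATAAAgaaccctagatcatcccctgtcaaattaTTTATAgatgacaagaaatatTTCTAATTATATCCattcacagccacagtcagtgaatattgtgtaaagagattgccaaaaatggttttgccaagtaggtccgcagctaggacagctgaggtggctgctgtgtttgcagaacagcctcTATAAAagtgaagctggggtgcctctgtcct

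All 6 members had an upstream region in the RefSeq table. The run of 14 bases was the longest that Myh2, Myh1, Myh4 and Myh8 had in common, a group of 4 chosen after the sequences had been seen. Searched on both strands, it was present in 4 of the 32851 upstream regions of this length in the table, 0.0122%. Those 4 were the same 4 members, which held it by construction, while the regions of Myh3 and Myh13 did not contain it. Shares for other runs of 14 bases were not computed, so nothing particular is read from this one. TATAAA was found 1 time in the Myh3 region, 2 times in Myh1, 3 times in Myh4 and 1 time in Myh8, against 12.4% of all regions with at least 1 match. The E-box CANNTG, the type of site bound by MyoD and myogenin, was found 1 time in Myh3, 2 times in Myh4, 1 time in Myh8 and 2 times in Myh13, and 66.2% of all regions held it. A MEF2 site, the AT-rich element of muscle genes, was found 1 time each in Myh1, Myh4 and Myh8, where it overlapped a TTTATA match, and in 2.92% of all regions. A CArG box, the site of serum response factor, was found 1 time in Myh4 and in 1.47% of all regions. These are matches of letters, not measured binding.

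Across the window, islands covered 45.2 kb in the enhancer-deletion library and 35.6 kb in the wild-type library, that is 12.6% of its length in the enhancer-deletion library and 9.89% in the wild-type library. Their lengths ran from 1.4 to 21.2 kb in the enhancer-deletion library and from 2.4 to 20.8 kb in the wild-type library. The ratio of covered length was 1.27, but 0.994 when each list was limited to the 50% of islands that scored highest. Cover was then nearly equal, at 9.0% (enhancer deletion) and 9.06% (wild type), so the enhancer-deletion excess was no longer seen. The limit was a score of 51.9 in the enhancer-deletion list and 63.3 in the wild-type list. Under it the short island at the start of Myh3 was left out of the enhancer-deletion list alone. No opposite direction is therefore read from the value of 0.994. In the full lists 33.6 kb was covered in both, which is 74.3% of the enhancer-deletion cover and 94.4% of the wild-type cover. Member gene bodies held 72.6% of the cover in the enhancer-deletion library and 73.0% in the wild-type library. No cover lay right of Myh1 in either library, as the map of the cluster shows.

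**Figure D1:**
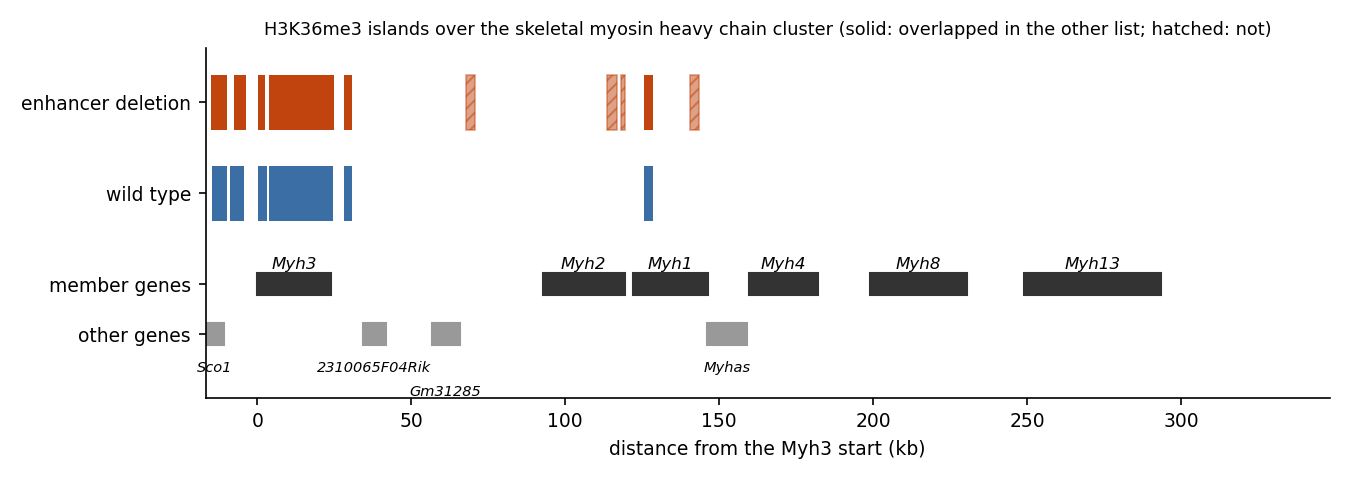
Map of the islands over the cluster, with the distance from the Myh3 start in kb on the horizontal axis, the enhancer-deletion library in the upper row and the wild-type library in the row under it; black bars are the 6 members and grey bars other annotated genes. The 6 wild-type islands all have a counterpart, 4 of the 10 enhancer-deletion islands (hatched) have none, and no island lies right of Myh1.

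Tiles of 360 kb cut from the autosomes and chromosome X gave a scale for these values. Tiles, here and below, were laid end to end without regard to gene edges, so a gene body and a tile are not like units. The cluster window was covered further than 65.6% of the 7319 tiles in the enhancer-deletion library and further than 61.3% of them in the wild-type library. The median tile was covered to 3.94% in the enhancer-deletion library and to 4.22% in the wild-type library. Against the 338 tiles of chromosome 11 alone, which is more densely covered, the cluster ranked above 54.1% in the enhancer-deletion library and above 47.9% in the wild-type library. Among 3794 tiles covered to at least 2.5% in both libraries, 19.0% had a ratio of enhancer-deletion to wild-type cover of at least 1.2, and the median ratio was 0.978. The ratio of 1.27 for the cluster was exceeded by 14.1% of those tiles and by 7.80% of the 218 such tiles on chromosome 11.

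Myh3 was the member with by far the most cover in both libraries. Islands lay over 94.1% of its 24.0 kb in the enhancer-deletion library and over 95.7% in the wild-type library, which is 22.6 kb in the enhancer-deletion library and 23.0 kb in the wild-type library. Cover over Myh3 made up 49.98% of all cluster cover in the enhancer-deletion library and 64.6% in the wild-type library. The difference of -1.67 percentage points (enhancer deletion minus wild type) amounts to 2 windows of 200 bp, the step in which island edges were placed. Of tiles of 24.0 kb cut from the genome, 0.472% were covered at least this far in the enhancer-deletion library and 0.457% in the wild-type library.

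The layout over Myh3 was nearly the same in the 2 libraries. A short island opened the gene at chr11:66892001-66894400 in the enhancer-deletion library and at chr11:66892001-66894800 in the wild-type library. A long island followed at chr11:66895601-66916800 in the enhancer-deletion library (21.2 kb) and at chr11:66895601-66916400 in the wild-type library (20.8 kb). The short island began 226 bp past the annotated start in both lists, and the gap before the long one was 1.2 kb in the enhancer-deletion library and 0.8 kb in the wild-type library. The long island ran past the annotated end by 1.01 kb in the enhancer-deletion library and by 0.607 kb in the wild-type library. Divided into 3 equal parts from start to end, Myh3 was covered to 82.2% in the first part in the enhancer-deletion library and 87.2% in the wild-type library, and to 100% in the middle and last parts in both. The 250 bases printed above for Myh3 held no island in either library, and neither did the upstream regions of the other 5 members. Those of Myh4, Myh8 and Myh13 lie in the long stretch without islands described below. The share of all upstream regions under islands was not computed, so nothing about promoters is read from this.

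Both left edges over Myh3 were the same in the 2 lists, on the 200 bp grid of the island edges. In the whole cluster 2 of 10 enhancer-deletion islands had a left edge that was also a wild-type left edge, where 13.1% of all enhancer-deletion islands did, and 2 of 10 had such a right edge, where 13.0% did. The microRNA gene Mir6923 lies inside Myh3, and the long island covered the whole of it in both libraries.

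**Figure D2:**
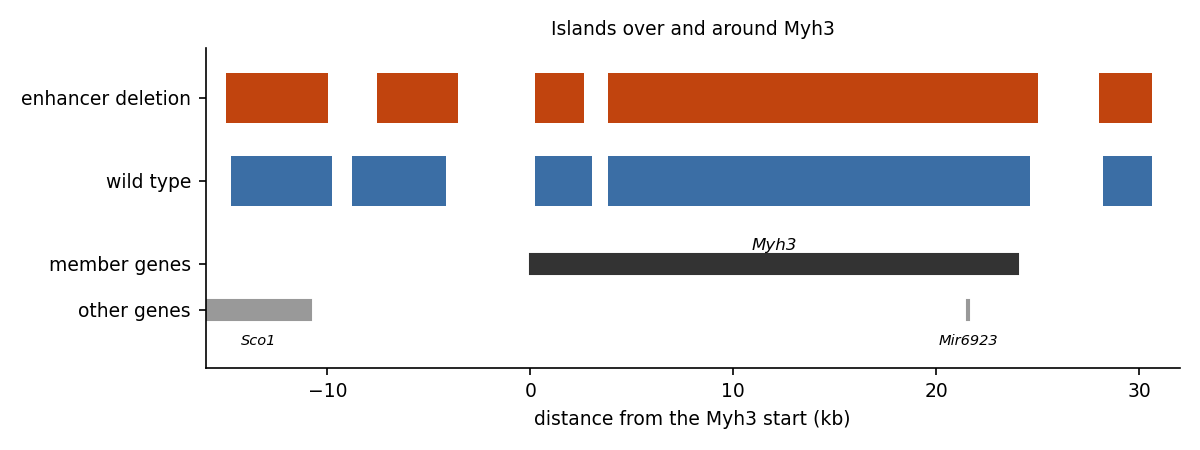
Islands over and around Myh3, with the distance from its annotated start in kb on the horizontal axis; the upper row is the enhancer-deletion library, the next row the wild-type library, and the bars below are genes. In both libraries an island starts 226 bp past the start, a gap of 1.2 kb (enhancer deletion) or 0.8 kb (wild type) follows, and the long island ends past the gene's end.

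An island score in SICER, the program that called the islands, sums evidence over 200 bp windows and grows with depth and with length, so scores are ranked here within a list and, apart from the lowest score of each list, are not compared between lists. The long Myh3 island had a deposited score of 654 in the enhancer-deletion list, rank 923 and above 98.7% of that list. It had a score of 761 in the wild-type list, rank 593 and above 99.0% of that list. Among the islands of chromosome 11 it ranked 27 by score in both lists. Divided by its 106 windows in the enhancer-deletion list and its 104 windows in the wild-type list, the score per window was 6.17, above 84.8% of enhancer-deletion islands, and 7.32, above 93.8% of wild-type islands. The long Myh3 island was thus both long and, per window, in the upper part of each list. The short Myh3 island scored 40.9 in the enhancer-deletion list, above 38.2% of it, and 68.4 in the wild-type list, above 53.7% of it.

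**Figure D3:**
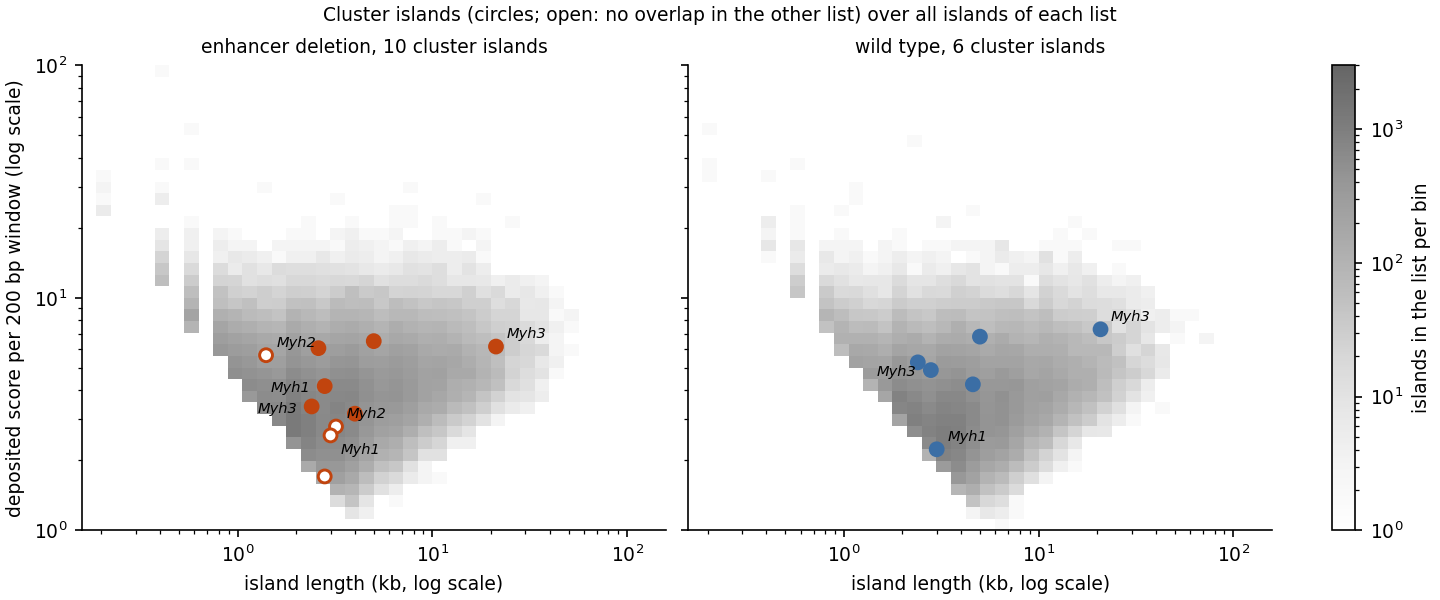
Deposited score per 200 bp window against island length, both on log axes, for the cluster islands (circles, named where they lie over a member) drawn over counts of all islands of the list in grey; the left panel is the enhancer-deletion library and the right panel the wild-type library. Open circles are islands with no counterpart, and 14 enhancer-deletion and 8 wild-type islands of the whole lists fall outside the plotted range. The long Myh3 island stands apart at the right in both panels, and the other cluster islands are 5 kb or shorter.

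Myh2, the gene of the IIa form, carried islands in the enhancer-deletion library and none in the wild-type library. The 2 enhancer-deletion islands lay at chr11:67005401-67008600 (3.2 kb, score 44.7) and at chr11:67009801-67011200 (1.4 kb, score 39.6), that is 20.9 to 24.1 kb and 25.3 to 26.7 kb past the annotated start, so that the second ended 0.181 kb past the gene's end. They covered 16.7% of the 26.5 kb gene body, against 0% in the wild-type library, and 50.05% of the last of its 3 equal parts. Neither the first nor the middle part was covered. Of tiles of the same length in the genome, 4.65% held islands in the enhancer-deletion library alone and 4.68% in the wild-type library alone, so that a stretch of this size marked in 1 list only was about as common in either direction.

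Myh1, the gene of the IIx form, carried 2 islands in the enhancer-deletion library and 1 in the wild-type library. The island found in both lay in the first of 3 equal parts, at chr11:67017401-67020200 in the enhancer-deletion library and chr11:67017201-67020200 in the wild-type library, with its left edge 3.80 kb past the start in the enhancer-deletion library and 3.60 kb past it in the wild-type library. Its score was 58.4 in the enhancer-deletion list, above 55.2% of that list, and 33.5 in the wild-type list, above 8.23% of that list. The second enhancer-deletion island, at chr11:67032201-67035200, lay 18.6 to 21.6 kb past the start in the last part, with a score of 38.4, above 34.7% of the list. Cover of the 24.5 kb gene body was 23.7% in the enhancer-deletion library and 12.3% in the wild-type library. Of tiles of 24.4 kb in the genome, 18.1% were covered at least this far in the enhancer-deletion library and 26.9% in the wild-type library, and 28.6% held islands in both. With the highest-scoring 50% of each list, Myh1 was covered to 11.4% in the enhancer-deletion library and to 0% in the wild-type library.

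Myh4 (IIb), Myh8 (perinatal) and Myh13 (extraocular) carried no island in either library. Their bodies measure 22.6, 31.5 and 44.5 kb. Tiles of these lengths without an island in either list made up 63.0%, 59.0% and 54.4% of all tiles, so the absence of islands is common among such tiles. Island lists hold only regions above the caller's limits, and reads below those limits over these genes were not analysed here. The nearest island left of the Myh4 start was 16.1 kb away in the enhancer-deletion library and 31.1 kb away in the wild-type library. To the right, no island followed until chr11:67692001 in the enhancer-deletion library and chr11:67691601 in the wild-type library, so the stretch without islands measured 656.8 kb in the enhancer-deletion library and 671.4 kb in the wild-type library. Of this stretch, 204.8 kb lay inside the cluster window in the enhancer-deletion library and 219.8 kb in the wild-type library, and the rest lay to its right. By its whole length the stretch ranked 23 of 3977 stretches between islands on chromosome 11 in the enhancer-deletion library and 20 of 3331 in the wild-type library. The long noncoding RNA gene Myhas, which runs from the end of Myh1 to just before Myh4, fell within this stretch in both libraries.

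**Figure D4:**
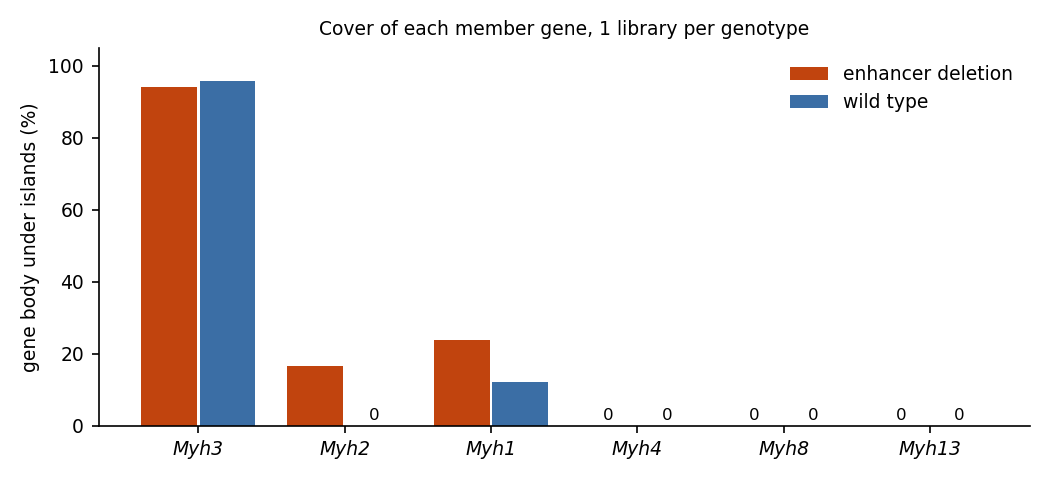
Percent of each member's gene body under islands (vertical axis), members in chromosomal order (horizontal axis), with the enhancer-deletion library left of the wild-type library in each pair; bars are single libraries without error bars. Myh3 stands at 94.1% (enhancer deletion) and 95.7% (wild type), Myh2 at 16.7% (enhancer deletion) and 0% (wild type), Myh1 at 23.7% (enhancer deletion) and 12.3% (wild type), and the other 3 members at 0% in both.

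The cluster islands that lay over no member were 4 in the enhancer-deletion library and 3 in the wild-type library. At the left edge of the window, the end of Sco1, a gene for an assembly factor of cytochrome c oxidase, was covered at chr11:66876801-66881800 in the enhancer-deletion library and chr11:66877001-66882000 in the wild-type library. Between Sco1 and Myh3 an island lay at chr11:66884201-66888200 in the enhancer-deletion library and chr11:66883001-66887600 in the wild-type library. Past the end of Myh3 an island lay at chr11:66919801-66922400 in the enhancer-deletion library and chr11:66920001-66922400 in the wild-type library. These 3 pairs were thus found in both genotypes. A further enhancer-deletion island at chr11:66959601-66962400 lay 2.15 kb past Gm31285 with no counterpart, and had the lowest score of the cluster (23.9, above 4.04% of the list). The long noncoding RNA genes 2310065F04Rik and Gm31285, between Myh3 and Myh2, carried no island in either library.

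With an overlap of at least 1 bp as the rule for a counterpart, 4 of the 10 enhancer-deletion islands had none in the wild-type list, against a background of 25.7% of all enhancer-deletion islands. None of the 6 wild-type islands lacked one in the enhancer-deletion list, against 18.0% of all wild-type islands. The shares with a counterpart were 60.0% in the enhancer-deletion library (exact binomial 95% interval 26.2% to 87.8%) and 100% in the wild-type library (54.1% to 100%), beside 74.3% of the whole enhancer-deletion list and 82.0% of the whole wild-type list. These intervals cover counting error only, neighbouring islands of 1 library are not replicates, and nothing particular to the cluster is read from the shares. The 4 islands without a counterpart, 2 over Myh2, 1 over Myh1 and 1 in the space before Myh2, were short (1.4 to 3.2 kb) and together measured 10.4 kb.

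Their deposited scores lay between 23.9 and 44.7. Of the 27024 enhancer-deletion islands anywhere with scores in that range, 46.0% had no wild-type counterpart. The enhancer-deletion list also reached lower scores than the wild-type list, with a lowest score of 22.6 in the enhancer-deletion list and 30.3 in the wild-type list, and 20.5% of the whole enhancer-deletion list lay under the lowest wild-type score. Of the 4 islands, 1 lay under it, the one over no gene, and the 3 over Myh2 and Myh1 lay above it with scores of 44.7, 39.6 and 38.4. Leaving out enhancer-deletion islands under that score therefore could not change cover in that library, which stayed at 16.7% for Myh2 and 23.7% for Myh1. Scores grow with depth, and this limit, chosen after seeing the data, does not correct for it. As solved from the scores of islands 1 window long, the mean depth was 3.11 reads per window in the enhancer-deletion library and 2.82 in the wild-type library, a ratio of 1.102. The part of depth in the islands over Myh2 and Myh1 was not tested, and genotype and library cannot be told apart. When each list was limited to the 50% of islands that scored highest, the cluster cover was 9.0% in the enhancer-deletion library and 9.06% in the wild-type library, and Myh2 carried none in either.

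Members of the cluster are close relatives in coding sequence, and how reads that match several of them were treated is not stated by the labels. In a bulk culture, fewer cells with a marked gene and less mark per cell cannot be told apart.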

How the data were processed

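H3K36me3 was mapped by ChIP-seq in 2 libraries, 1 per genotype. Bowtie 1.0.0 (alignment) and SICER 1.1 (broad regions) were used with mm9, per the submitters' processing notes. The authors deposited 1 list of islands per library, with a score for each island; the deposited names give windows of 200 bp and gaps of 600 bp, and all starts and lengths were multiples of 200. Use of the input libraries and removal of duplicate reads are not given in the sources used here. Island positions are printed counted from 1. No read totals were given.

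Gene edges come from RefSeq (GRCm38.p6). They were placed on mm9 by a constant shift of 186498 bp stated with the definition of the cluster, which puts Myh3 25 bp left of the start and 7 bp left of the end stated there, at about 66891800 and 66915800. No chain file was used, so cover of a gene can be off where the shift is not constant. Cover, overlaps and ranks were computed with Python 3.11.15, numpy 2.4.6, pandas 2.3.3 and scipy 1.17.1, and figures with matplotlib 3.10.9. Depth was solved from 14 enhancer-deletion and 8 wild-type islands of 1 window. The solving of depth was tested on simulated scores. Matching of counterparts was tested on the wild-type list with islands removed and on small made-up lists, which also served for cover and joining. Ranks, tiles and motif matches were not tested in this way.

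All 6 members and all islands of the window are described, and other genes only where they lie in the window. Members, window and comparisons were chosen with earlier results of these data known.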

Additional observations from a re-analysis of the deposited data

How the results depend on the processing

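With only the 50% of islands that scored highest in each list, the cluster held 5 enhancer-deletion islands. They covered 9.0% of the window, against 9.06% in the wild-type library, so the ratio of enhancer-deletion to wild-type cover was 0.994. The wild-type island past the end of Myh3 was kept only narrowly, being above 50.03% of its list. This setting leaves out islands of low score by construction. Under the other settings (islands of at least 2 kb, islands within 2 kb joined, equal covered length, the window drawn from Myh3 to Myh13, and enhancer-deletion islands no lower in score than the lowest wild-type score) the ratio lay between 1.19 and 1.36. The last of these was chosen after seeing the data. The small Myh3 difference turned to 2.35 percentage points when 5 kb was added on each side of the gene. With the highest-scoring 50% of each list it widened to -11.7 percentage points. The short Myh3 island fell out of the enhancer-deletion list (score 40.9, limit 51.9) and stayed in the wild-type list (68.4, limit 63.3). The long Myh3 island stayed in both. Cover of Myh3 was then 84.1% in the enhancer-deletion library and 95.7% in the wild-type library. Myh4, Myh8 and Myh13 carried no island under any setting, moved gene edges and added flanks included. Myh2 carried islands in the enhancer-deletion library and none in the wild-type library under each setting but the one of the highest-scoring 50%. The setting with the lowest wild-type score as its limit left the Myh2 islands in by construction. So did equal covered length, which trimmed only the wild-type list, the longer of the 2 (308 Mb against 298 Mb in the enhancer-deletion list). It could not raise the wild-type cover of Myh2 either. Counterpart shares under a 50% overlap, reciprocal or not, were 60.0% in the enhancer-deletion library and 100% in the wild-type library, as before. No paired analysis was possible because there was 1 library per genotype, and leaving out a replicate was not possible for the same reason. What depth contributes to the low-scoring islands was not tested.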
